A study of Saccharomyces cerevisiae with 4 samples.

Results

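The hexose transporter genes of Saccharomyces cerevisiae encode the plasma membrane proteins through which glucose and related sugars enter the cell. Of 5449 tested yeast genes, the 10 described here were HXT1, HXT2, HXT3, HXT4, HXT5, HXT7, HXT8, HXT10, HXT13 and GAL2, chosen by name and each measured by its brightest probe set. They were measured on 4 Affymetrix expression arrays of the laboratory strain BY4741, a MATa haploid that carries deletions in HIS3, LEU2, MET17 and URA3 in both groups. Cells were grown in YPD, a rich medium with glucose, to an optical density of about 0.4 and then received honokiol, a biphenolic compound of magnolia bark, at 12 µg/mL for 2 h (2 arrays), or only ethanol, its solvent, in equal volume for 2 h (2 arrays). The labels give an age of 8 h for all samples and call the replicates biological.

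Hexose transporters carry sugars by facilitated diffusion, and yeast holds many copies that differ in their affinity for glucose. Hxt1 and Hxt3 are low-affinity carriers that serve growth on abundant glucose, while Hxt2, Hxt4, Hxt6, Hxt7 and Gal2 have a higher affinity. The membrane sensors Snf3 and Rgt2 detect glucose outside the cell and cause the breakdown of Mth1 and Std1, partners of the repressor Rgt1, so that Rgt1 leaves the HXT promoters. A separate route, through the kinase Snf1 and the repressor Mig1 with its relatives Mig2 and Mig3, shuts off several high-affinity transporter genes when glucose is plentiful.

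Values are log2 of the deposited intensities. Changes are honokiol minus ethanol with the standard error (SE) and adjusted p of a limma fit to all 5449 genes, and a gene was called at an adjusted p under 0.05. The background level was log2 4.37, the 95th percentile of 1746 probe sets whose gene name matched no S. cerevisiae gene. These were taken as probe sets for fission yeast, which the array also covers. The median log2 intensity over tested genes lay between 9.57 and 9.59 on all 4 arrays. Of the deleted genes, URA3 lay at 2.73 to 3.10 on the 4 arrays, LEU2 at 4.28 to 4.48 and MET17 at 4.41 to 4.56, all near or below the background level. HIS3 lay at 10.70 to 11.05 and was lower with honokiol (-0.33 ± 0.06, adjusted p = 0.0114; 0.0887 without honokiol 1 and 0.106 without honokiol 2); where its probe set lies relative to the deletion is not known here, so it checks nothing. The mean log2 5′/3′ ratio over 7 yeast control transcripts, a sign of RNA quality, was -1.18 and -1.22 on the honokiol arrays. It was -1.31 and -1.67 on the ethanol arrays, so ethanol 2 stood lowest. Both ethanol arrays lay below both honokiol arrays, so a fit with this ratio cannot fully part it from the treatment.

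Of the 10 hexose transporter genes, 4 rose (HXT1, HXT2, HXT3 and GAL2), 3 fell (HXT4, HXT5 and HXT7) and 3 did not pass the test (HXT8, HXT10 and HXT13). Over all tested genes 48.9% were called, 23.9% higher and 25.0% lower, so calls as such were common on these arrays. Rises of at least 2-fold were rare over all genes, at 3.78% of those tested, and HXT1, HXT2 and HXT3 were among them. None of the 10 fell by 2-fold or more, as 0.954% of all tested genes did. The arrays of both groups did not overlap for 7 of the 10 genes, while 80.2% of all tested genes showed no overlap. The median change of the 10 genes was 0.19 on the log2 scale, and that of all tested genes was 0.01. RNA came from whole cultures, in which more cells with a transcript and more transcript per cell cannot be told apart.

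**Figure D1:**
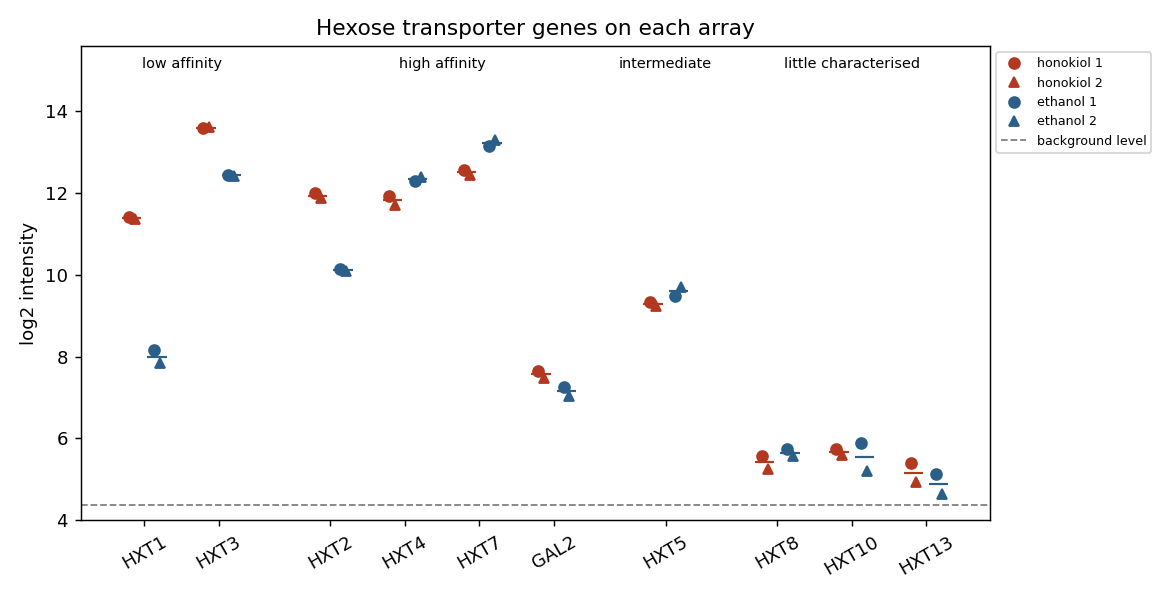
Log2 intensity of each hexose transporter gene on the 2 honokiol and the 2 ethanol arrays, grouped by affinity for glucose; short lines are group means and the dashed line is the background level of 4.37. HXT1, HXT3 and HXT2 stand apart most between the groups, and HXT8, HXT10 and HXT13 lie near the background level; levels of different genes come from different probe sets and are not compared.

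Among the low-affinity transporters, HXT1, the carrier that is classically induced by high glucose, had log2 intensities of 11.41 and 11.37 on the honokiol arrays, against 8.16 and 7.84 on the ethanol arrays. The groups were 3.21 apart at their nearest arrays, and the ethanol pair differed by 0.32 where the honokiol pair differed by 0.04. HXT1 rose by 3.39 ± 0.12 (SE), or 10.5-fold (adjusted p = 0.000669), the third largest rise among the tested genes. HXT3, which is expressed over a wide range of glucose concentrations, had 13.58 and 13.61 with honokiol, against 12.45 and 12.42 with ethanol. Its replicates differed by under 0.03 in both groups, which made it the most closely repeated of the 10 genes. HXT3 rose by 1.16 ± 0.06, or 2.23-fold (adjusted p = 0.00103), and stood at rank 142 of all rises. Its interval of the change ran from 1.01 to 1.31 and that of HXT1 from 3.08 to 3.70 (95% confidence, from the fit), so that both low-affinity genes rose but by unequal amounts.

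Both low-affinity calls were kept under all 13 alternative settings. With the 5′/3′ ratio in the fit, HXT1 was higher by 3.13 and HXT3 by 1.14. Without ethanol 2, the array with the lowest ratio, HXT1 was higher by 3.23 and HXT3 by 1.14.

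The high-affinity transporter genes moved in both directions. HXT2, a carrier for low glucose, had 11.99 and 11.89 with honokiol, against 10.14 and 10.11 with ethanol. All values within a group lay within 0.11 of each other, and the groups were 1.74 apart. HXT2 rose by 1.81 ± 0.07, or 3.52-fold (adjusted p = 0.000672), at rank 38 of all rises, and kept its call under all 13 alternatives (1.76 to 1.87). GAL2, the galactose permease, which also carries glucose, had 7.65 and 7.49 with honokiol, against 7.26 and 7.03 with ethanol. The groups were 0.22 apart, which is less than the 0.23 between the ethanol arrays. GAL2 rose by 0.42 ± 0.11, or 1.34-fold (adjusted p = 0.0300). Its call was lost without honokiol 1 (adjusted p = 0.173) or honokiol 2 (adjusted p = 0.0890), after quantile normalization again (0.17, adjusted p = 0.137), with all probe sets tested (adjusted p = 0.0780) and with the 5′/3′ ratio in the fit (0.22, adjusted p = 0.144).

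HXT7, a high-affinity carrier that is repressed by high glucose, had 12.56 and 12.45 with honokiol, against 13.16 and 13.30 with ethanol. Both honokiol arrays were the lower ones and the groups were 0.60 apart. HXT7 fell by 0.72 on the log2 scale (SE 0.08, adjusted p = 0.00377) and kept its call in all 12 alternatives that tested it. Its probe set carries the mark of one that can bind several transcripts, and the near-identical gene next to it, HXT6, was not measured apart from it, so the value may belong to either or both.

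HXT4, a carrier that like HXT2 is classically induced by low glucose, had 11.94 and 11.71 with honokiol, against 12.29 and 12.38 with ethanol. The groups were 0.35 apart and the honokiol arrays differed by 0.23. HXT4 fell by 0.51 on the log2 scale (SE 0.10, adjusted p = 0.0140). Its fall did not pass without honokiol 2 (-0.40, adjusted p = 0.0810) or with the 5′/3′ ratio in the fit (-0.46, adjusted p = 0.0662). The interval of its change ran from -0.77 to -0.26 and that of HXT2 from 1.64 to 1.99, so these low-glucose carriers went opposite ways.

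**Figure D2:**
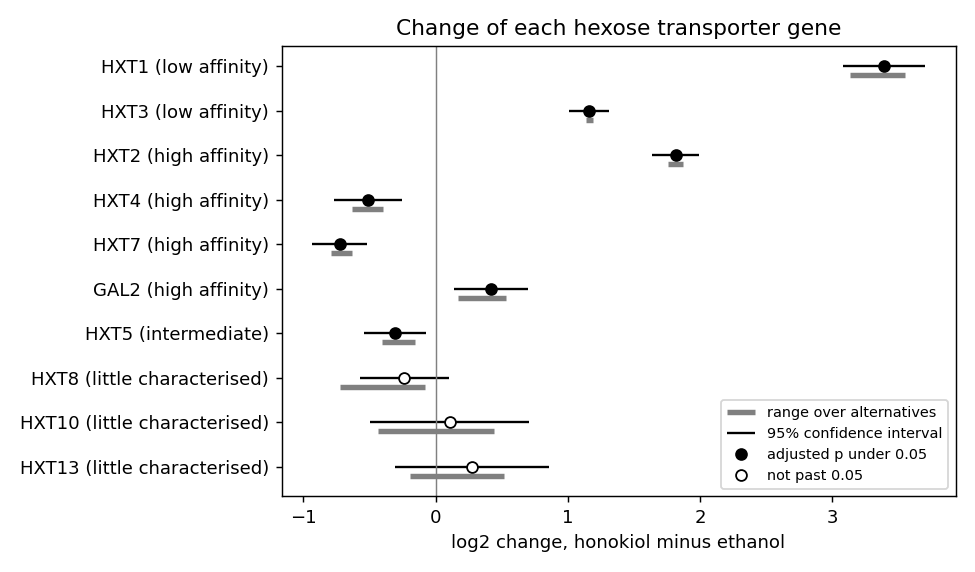
Log2 change (honokiol minus ethanol) of each hexose transporter gene, with the 95% confidence interval of the limma fit (black line) and the range over the alternative settings (grey bar); filled points passed an adjusted p of 0.05. The intervals of HXT1, HXT2 and HXT3 lie above 1, those of HXT4 and HXT7 below 0, and those of HXT8, HXT10 and HXT13 include 0.

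HXT5 encodes a carrier of intermediate affinity that is typical of slow growth and starvation. It had 9.34 and 9.25 with honokiol, against 9.50 and 9.69 with ethanol, and the groups were 0.16 apart. HXT5 fell by 0.30 on the log2 scale (SE 0.09, adjusted p = 0.0451), the call nearest the threshold among the 10 genes. It did not pass without honokiol 1 (adjusted p = 0.147), honokiol 2 (adjusted p = 0.221) or ethanol 2 (-0.20, adjusted p = 0.0767), with all probe sets tested (adjusted p = 0.114) or with the 5′/3′ ratio in the fit (-0.16, adjusted p = 0.246).

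The remaining genes, HXT8, HXT10 and HXT13, encode transporters that are little expressed on glucose, and their probe sets lay near the background level. HXT8 had 5.57 and 5.26 with honokiol, against 5.74 and 5.56 with ethanol (-0.24 ± 0.13, adjusted p = 0.185). HXT10 had 5.73 and 5.58 with honokiol, against 5.89 and 5.22 with ethanol (0.11 ± 0.23, adjusted p = 0.723). HXT13, whose product can also carry sugar alcohols, had 5.39 and 4.94 with honokiol, against 5.13 and 4.65 with ethanol (0.27 ± 0.22, adjusted p = 0.349). The groups overlapped for all 3 genes. Their intervals ran from -0.57 to 0.10 for HXT8, from -0.49 to 0.71 for HXT10 and from -0.31 to 0.86 for HXT13. Changes within these ranges were not excluded by this fit. Both group means of HXT13 lay under a stricter background level of 5.22, the 99th percentile of the probe sets that set the background level. HXT8 ran from -0.39 without honokiol 1 to -0.08 without honokiol 2, and after quantile normalization again it was at -0.73 and passed as lower (adjusted p = 0.00242). HXT10 changed its sign without ethanol 2 (-0.23) and was at 0.44 without ethanol 1. It passed as lower after quantile normalization again (-0.39, adjusted p = 0.0248) and with the 5′/3′ ratio in the fit (-0.43, adjusted p = 0.0206).

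Set side by side, the low-affinity genes HXT1 and HXT3 changed by a mean of 2.27 and the high-affinity genes HXT2, HXT4, HXT7 and GAL2 by a mean of 0.25 on the log2 scale, a difference of 2.02 for which no test was made. On single arrays, with each gene taken relative to its own mean over the 4 arrays, the low-affinity genes lay at 1.14 and 1.13 with honokiol, against -1.05 and -1.22 with ethanol. The high-affinity genes lay at 0.20 and 0.05 with honokiol, against -0.12 and -0.13 with ethanol. The high-affinity mean hides the spread among its genes, from -0.72 for HXT7 to 1.81 for HXT2. HXT2 alone gave it a positive sign: without HXT2 the high-affinity mean was -0.27. As a sum of linear intensities, the high-affinity class was lower with honokiol, at 0.85 of its ethanol level. The low-affinity class was higher, at 2.60. These sums add different probe sets and mostly follow the brightest ones, so they are not class totals of transcript. On ethanol 1, HXT3 gave 5591 of the low-affinity 5877, and the HXT7 probe set 9172 of the high-affinity 15466. The low-affinity mean also joins unequal rises, 3.39 for HXT1 and 1.16 for HXT3. In sign, HXT4 and HXT7 stood against HXT1 and HXT3, whereas HXT2 and GAL2 rose as the low-affinity genes did.

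**Figure D3:**
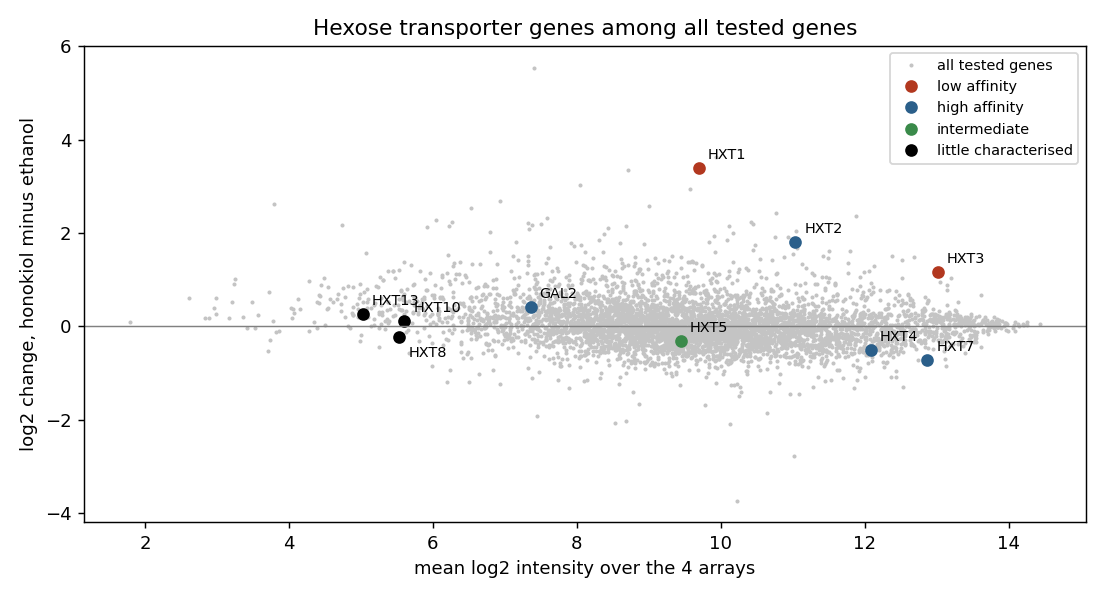
Log2 change (honokiol minus ethanol) against mean log2 intensity over the 4 arrays, with all 5449 tested genes in grey and the hexose transporter genes coloured by affinity for glucose. HXT1 (3.39), HXT2 (1.81) and HXT3 (1.16) lie above most genes of like intensity, HXT4 (-0.51) and HXT7 (-0.72) lie below 0, and the dim genes lie in the scatter around 0.

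Some neighbouring transporter genes changed in opposite directions, though HXT4 and HXT5 lost their calls under some alternatives. In the R64 gene table HXT4, HXT1 and HXT5 lie close together on chromosome VIII, with 1 gene between HXT4 and HXT1 and 0 between HXT1 and HXT5; of these, HXT1 rose 10.5-fold while its neighbours HXT4 and HXT5 fell by 0.51 and 0.30 on the log2 scale. HXT7, HXT6 and HXT3 lie together on chromosome IV, with 1 gene between HXT6 and HXT3. There HXT3 rose 2.23-fold while the HXT7 probe set fell by 0.72 on the log2 scale. Over the 4 arrays, the genes outside the family with a profile nearest to HXT1 were YOR302W, an upstream reading frame on the CPA1 transcript, the uncharacterised YGR035C, and CIS1, at Euclidean distances of 0.22, 0.29 and 0.54 between mean-centred log2 profiles. Nearest to HXT7, the gene with the largest fall of the 10, were SPS19, SYP1 and YDL199C (distances 0.04, 0.05 and 0.05). With 2 groups of 2 arrays, such likeness is mostly a like size of change.

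Of 8 other genes of the hexose transporter family, 5 were measured and 0 were called by limma (unadjusted p between 0.110 and 0.570). Over all tested genes 48.9% were called. HXT9 and HXT11, linked to drug resistance, changed by 0.26 ± 0.13 and 0.21 ± 0.18 (adjusted p = 0.164 and 0.377). HXT14 changed by 0.35 ± 0.21, HXT15 by 0.45 ± 0.32 and HXT17 by 0.09 ± 0.14 (adjusted p = 0.225, 0.291 and 0.638). All 5 values were positive, but HXT11, HXT15 and HXT17 turned negative after quantile normalization again, and all 5 did with the 5′/3′ ratio in the fit. Without ethanol 1, HXT9, HXT14 and HXT15 were at 0.43, 0.67 and 0.85, set against ethanol 2 alone, the array with the lowest 5′/3′ ratio. Of the 15 family genes tested, 7 lay under log2 7 on ethanol 1, and all of these were dimmer on ethanol 2, by 0.18 to 0.80. Replicate 2 was the dimmer array in both groups for most of the 15, 12 with ethanol and 13 with honokiol. The probe sets of HXT9, HXT15 and HXT17 can bind several transcripts; HXT6, HXT12 and HXT16 were not analysed here.

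Of 9 genes of glucose sensing and of the Rgt1 pathway, 5 fell and 1 rose, where 25.0% of all tested genes were called lower and 23.9% higher. Their median change was -0.22 on the log2 scale. RGT1, the repressor of HXT genes, had 9.16 and 9.09 with honokiol, against 9.70 and 10.00 with ethanol, and fell by 0.73 (SE 0.11, adjusted p = 0.00804). MTH1, its corepressor partner, had 9.42 and 9.39 with honokiol, against 9.88 and 9.98 with ethanol, and fell by 0.53 (SE 0.06, adjusted p = 0.00479). STD1, the paralog of MTH1, went the other way, with 10.46 and 10.48 with honokiol, against 10.01 and 9.93 with ethanol, and rose by 0.50 ± 0.06 (adjusted p = 0.00505). So the partners of Rgt1 moved apart, each with arrays that did not overlap, as held for 80.2% of all tested genes. GRR1, the F-box protein through which Mth1 and Std1 are broken down, fell by 0.40 (SE 0.12, adjusted p = 0.0433), and the sensors SNF3 and RGT2 fell by 0.28 and 0.22 (adjusted p = 0.0288 and 0.0489). Without honokiol 1 or honokiol 2, RGT1 (adjusted p = 0.0607 and 0.0659), MTH1 (0.0544 and 0.0560), STD1 (0.0570 and 0.0583), GRR1 (0.139 and 0.197), SNF3 (0.157 and 0.162) and RGT2 (0.234 and 0.210) did not pass. RGT2 did not pass without ethanol 2 either (adjusted p = 0.100), nor with an intensity trend and robust prior (adjusted p = 0.0669). With the 5′/3′ ratio in the fit, GRR1, SNF3 and RGT2 lost their calls (-0.18, -0.18 and -0.13, adjusted p = 0.233, 0.133 and 0.232). RGT1, MTH1 and STD1 kept theirs in that fit (-0.51, -0.45 and 0.44, adjusted p = 0.0190, 0.0169 and 0.0183). GRR1 was at -0.25 without ethanol 2 (adjusted p = 0.0488).

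In the glucose repression list, 2 of 15 genes rose and 5 fell, with a median change of -0.03; over all tested genes 23.9% were higher and 25.0% lower. The genes that rose encode the repressors MIG3 and MIG2, themselves known to be induced by glucose. MIG3 had 8.73 and 8.61 with honokiol, against 7.41 and 7.17 with ethanol, and rose 2.60-fold (1.38 ± 0.10, adjusted p = 0.00181). MIG2 had 9.83 and 9.93 with honokiol, against 8.87 and 8.77 with ethanol, and rose 2.08-fold (1.06 ± 0.07, adjusted p = 0.00153). MIG1, the main glucose repressor, had 10.36 on both honokiol arrays, against 10.22 and 10.49 with ethanol (0.01 ± 0.10, adjusted p = 0.956; -0.13 without ethanol 1). SIP2, a subunit of the Snf1 kinase, fell by 0.51 and REG1, a regulator of the phosphatase that acts on Snf1, fell by 0.41 (adjusted p = 0.00831 and 0.0268). SIP2 did not pass without honokiol 1 (-0.42, adjusted p = 0.0704). REG1 did not pass without honokiol 1 (adjusted p = 0.162) or honokiol 2 (adjusted p = 0.0978), or with the 5′/3′ ratio in the fit (-0.22, adjusted p = 0.109).

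Products of the hexokinase genes trap the sugar after entry, and changes of these genes were small. Of 4 genes for sugar phosphorylation, 1 rose and 1 fell, where 23.9% of all tested genes were called higher and 25.0% lower. HXK1 fell by 0.28 (SE 0.06, adjusted p = 0.0177) and EMI2, a paralog of the glucokinase gene, rose by 0.21 ± 0.06 (adjusted p = 0.0359). GLK1, the glucokinase, and HXK2, the main hexokinase on glucose, changed by -0.16 and 0.15 (adjusted p = 0.0665 and 0.0979), and with an intensity trend and robust prior both passed (adjusted p = 0.00178 and 0.00751). Without honokiol 1 or honokiol 2, neither HXK1 (adjusted p = 0.133 and 0.131) nor EMI2 (adjusted p = 0.222 and 0.178) passed. EMI2 also did not pass without ethanol 1 (adjusted p = 0.0581).

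Of 12 genes that glucose represses, 2 rose and 3 fell, near the shares of 23.9% and 25.0% over all tested genes, and their median change was 0.04. PCK1, of gluconeogenesis, had 8.82 and 8.68 with honokiol, against 7.60 and 7.32 with ethanol, and rose 2.44-fold (1.29 ± 0.12, adjusted p = 0.00256). ICL1, isocitrate lyase of the glyoxylate cycle, rose 1.38-fold (0.47 ± 0.07, adjusted p = 0.00669). CAT8, an activator of such genes, had 7.40 and 7.36 with honokiol, against 7.97 and 8.35 with ethanol, and fell by 0.78 (SE 0.14, adjusted p = 0.0112). FBP1, fructose-1,6-bisphosphatase, was at 0.53 ± 0.35 (adjusted p = 0.256), with arrays that overlapped, and at 0.92 without ethanol 1. CAT8 was at -0.49 with the 5′/3′ ratio in the fit (adjusted p = 0.0187), and ran from -0.98 without ethanol 1 to -0.59 without ethanol 2. CAT8 lost its call when either honokiol array was left out (adjusted p = 0.0746 without honokiol 1 and 0.0757 without honokiol 2), and ICL1 without honokiol 1 (adjusted p = 0.0699) or after quantile normalization again (0.24, adjusted p = 0.0616).

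**Figure D4:**
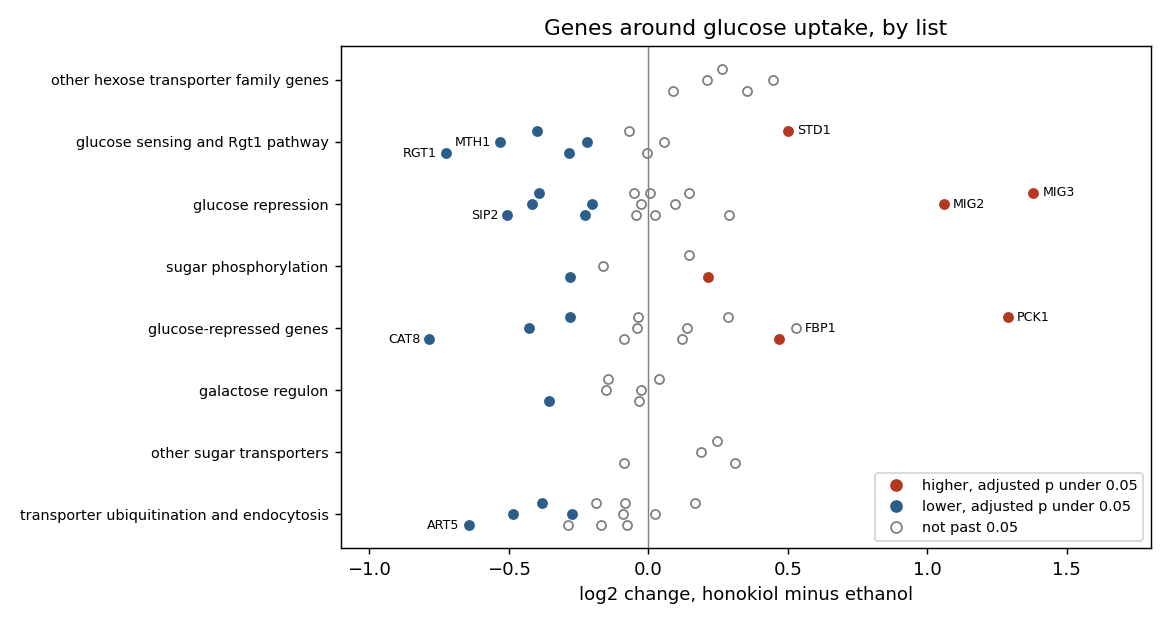
Log2 change (honokiol minus ethanol) of single genes in 8 lists around glucose uptake, 1 point per gene, red where higher and blue where lower at an adjusted p under 0.05 and open otherwise. MIG3 (1.38), PCK1 (1.29) and MIG2 (1.06) lie furthest to the right, and CAT8 (-0.78) and RGT1 (-0.73) furthest to the left.

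Of 6 measured genes of the galactose regulon other than GAL2, 0 rose and 1 fell, PGM2, a phosphoglucomutase that also serves trehalose and glycogen metabolism (-0.36 ± 0.08, adjusted p = 0.0215; 0.0776 without honokiol 1 and 0.140 without honokiol 2). GAL7, GAL3 and GAL80 changed by -0.15, -0.14 and 0.04 (adjusted p = 0.230, 0.142 and 0.620), and GAL7 and GAL3 passed as lower after quantile normalization again (-0.38 each, adjusted p = 0.0114 and 0.0189). For comparison, 23.9% of all tested genes were called higher and 25.0% lower. Of 4 measured transporters for other sugars or glycerol, 0 were called by limma (unadjusted p between 0.0631 and 0.253). Among them MPH2, a maltose permease, was at 0.31, STL1, a glycerol symporter, at 0.25, MAL31 at 0.19 and MAL11 at -0.09. The MPH2 probe set can bind several transcripts, and MPH3 was not analysed here. MPH2 and STL1 were at 0.51 and 0.50 without ethanol 1, and MAL11 passed as lower after quantile normalization again (-0.20, adjusted p = 0.0427).

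Surface transporters are removed by the ubiquitin ligase Rsp5 with its arrestin-like adaptors, and among 12 genes of this machinery 4 fell and 0 rose, with a median change of -0.18. The count of falls is near the share of 25.0% called lower over all tested genes, of which 23.9% were called higher. ART5, an adaptor of the inositol transporter, had 7.74 and 7.70 with honokiol, against 8.41 and 8.32 with ethanol, and fell by 0.64 (SE 0.06, adjusted p = 0.00307). It kept its call under all 13 alternatives. CSR2, an adaptor in the endocytosis of hexose transporters, had 8.33 and 8.04 with honokiol, against 8.62 and 8.72 with ethanol, and fell by 0.49 (SE 0.11, adjusted p = 0.0233; 0.103 without honokiol 2). ROG3 fell by 0.38 (adjusted p = 0.0160), a call lost without honokiol 1 (-0.30) or honokiol 2 (-0.46). ALY2 was at -0.29 ± 0.14 (adjusted p = 0.156), and at -0.44 without ethanol 1. With all probe sets tested, PGM2, REG1, GRR1, SNF3, RGT2, HXK1, EMI2, CSR2 and ROG3 did not pass (adjusted p = 0.0520 to 0.135), nor did they with the 5′/3′ ratio in the fit (adjusted p = 0.0626 to 0.233). The arrays do not measure transporter protein or sugar uptake.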

How the data were processed

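Each of the 4 arrays carries 1 RNA sample (biotin-labelled cRNA from 100 ng of total RNA, per the labels' protocols). The deposited values are intensities on a linear scale, which per the submitters' processing notes come from RMA (version not given in the sources used here). RMA corrects background, normalizes by quantiles, summarises probe sets and compresses changes of dim ones. Log2 was taken with no pseudocount. Genes were assigned to probe sets from the platform annotation and R64 gene names. Of 10928 probe sets, 5498 named 1 S. cerevisiae gene, giving 5449 genes by their brightest probe set. The sources used here name no genome build, and coordinates are left out.

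The honokiol arrays were tested against the ethanol arrays by limma 3.58.1 (lmFit, eBayes; R 4.3.3). Tests were two-sided and adjusted by Benjamini-Hochberg, in the main setting over 5449 genes. Alternatives that changed the probe sets tested were adjusted over the set they tested. All adjusted p-values come from limma fits, of which only the main form was tested on simulated data. The number of arrays limits the precision. Replicates correlated at 0.998 (honokiol) and 0.995 (ethanol) over genes.

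The 10 genes, their affinity classes and the gene lists were chosen with earlier results of these data known. The text names the 10 genes, all measured family genes, the largest absolute changes of each list (up to 4 genes), the 3 nearest profiles to HXT1 and HXT7, and the deleted genes; MIG1, SNF3 and RGT2 were added after their values were seen. Promoter motifs were not analysed here. Alternatives were an intensity trend with robust prior, quantile normalization again, median centring, removal of dim probe sets, testing every probe set except AFFX controls, no probe sets that can bind several transcripts, the mean of a gene's probe sets, the replicate number as a block, the 5′/3′ ratio in the fit, leaving out each array, and other class definitions.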

Additional observations from a re-analysis of the deposited data

How the results depend on the processing

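Some of the 17 alternatives, among them the intensity trend, median centring and replicate block, could not move the low-affinity minus high-affinity difference. That difference, 2.02 in the main setting, stayed positive under all 17, for these settings by construction. It was 1.70 without probe sets that can bind several transcripts (HXT7 then untested), 1.91 with the 5′/3′ ratio in the fit, 1.77 with HXT4 as intermediate, 1.62 from sums of linear intensities, and 1.94 to 2.11 when each array was left out. Of the 10 transporter genes, 7 passed in the main setting, 4 to 8 when an array was left out, and 8 after quantile normalization again, where 5 rather than 3 were lower. Over all genes 2663 passed, against 1611 with all probe sets tested and 705 to 3190 when an array was left out. In the pathway lists 24 genes passed, against 12 with all probe sets tested, 15 with the 5′/3′ ratio in the fit and 5 to 31 when an array was left out. Without honokiol 1 or honokiol 2 the spread comes from the ethanol pair alone, and the lone array is assumed to vary like it. Likewise, without ethanol 1 or ethanol 2 the spread comes from the honokiol pair alone. Over genes, the difference within the honokiol pair had an SD of 0.12, and that within the ethanol pair 0.21. Fits with the 5′/3′ ratio or the replicate block estimate more from the same 4 arrays, so less is left to estimate the spread.

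The labels do not say whether arrays with the same replicate number share more than that number. Deviations of such arrays from their group means correlated at 0.33 over genes. With the replicate block 2809 genes passed, 8 of them transporter genes: HXT5 did not pass (adjusted p = 0.0548) and HXT8 and HXT13 did (0.0482 and 0.0253). Of the list genes the text names, FBP1, HXT15 and HXT9 passed with the block (0.00647, 0.0181 and 0.0453) and RGT2 did not (0.0522).

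Reversals were found only among genes not called in the main setting, and the cause was not tested. After quantile normalization again HXT10 was at -0.39 (adjusted p = 0.0248), HXT13 at -0.19, HXT15 at -0.050, HXT11 at -0.27, HXT17 at -0.27 and STL1 at -0.17. With the 5′/3′ ratio in the fit HXT10 was at -0.43 (adjusted p = 0.0206), HXT13 at -0.15, HXT15 at -0.23, HXT14 at -0.15, HXT9 at -0.018, HXT11 at -0.082, HXT17 at -0.18, FBP1 at -0.15, STL1 at -0.16 and MPH2 at -0.0028. Over the fits that left out 1 array, HXT10 ran from -0.23 (without ethanol 2) to 0.44, HXT17 from -0.098 (without ethanol 2) to 0.27, HXT11 from -0.0042 (without honokiol 1) to 0.42 and MIG1 from -0.13 (without ethanol 1) to 0.14. Of 129 values of the 10 transporter genes under alternatives, 107 kept direction and call, 13 lost the call, 4 gained it and 5 reversed. Of 477 values of the 37 other genes followed through the alternatives, 394 kept both, 52 lost the call, 16 gained it and 15 reversed.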
